A study of Sus scrofa with 6 samples.

Results

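Of the 15633 differentially methylated regions (DMRs) listed between 2 pig skeletal muscles, 226 (1.45%) lay inside a CpG island. A DMR was counted here when at least 1 of its annotation entries named a CpG island as the second element, and each DMR was counted once. These 226 DMRs, their annotated genes and their read depths in the 6 libraries are described below. A further 1086 listed DMRs lay in island shores, the sequence flanking an island, and 14321 lay in neither. Of the 226 island DMRs, 47 also reached into a shore.

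CpG islands are stretches of GC-rich DNA in which the CpG dinucleotide has been kept at a high density. Islands at gene starts are mostly free of methylation in somatic tissue. Islands inside or between genes are methylated more often, and those at patterning genes such as the homeobox genes are often marked by Polycomb proteins and carry methylation that differs between cell types and positions along the body.

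The muscles were *longissimus dorsi* (LDM), a back muscle taken as glycolytic, and *psoas major* (PMM), a loin muscle taken as oxidative, from female Landrace pigs 210 days old. Both muscles were taken from the same pigs, as the study's methods describe. Neither muscle was treated, and each was represented by 3 libraries. Methylated DNA immunoprecipitation sequencing (MeDIP-seq) was used, in which an antibody against methylated cytosine enriches fragments before sequencing, so that depth depends on methylation as well as on how many CpGs a fragment holds. Whole muscle also contains vessels, nerve, fat and connective tissue, and a change in cell makeup and a change within the fibres cannot be told apart.

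All values are the mean read depth per CpG of a DMR, after scaling of each library by the authors. Differences are PMM minus LDM on the scale of log2(depth + 1), and folds are on that same scale, which understates the change where depth is low. The listed regions had been selected because they differed between these same 6 libraries. The test given with each value, limma with Benjamini-Hochberg adjustment over all 15633 listed DMRs, therefore sets the size of a difference against the spread between libraries and is not independent evidence for it. The labels do not say which pig gave which library, so the p-values measure the spread between these libraries only.

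The listed DMRs inside CpG islands mostly had a lower depth in PMM. Islands without a listed DMR are not covered. Of the 226 island DMRs, 197 (87.2%) were lower and 29 higher in PMM, and all 226 passed at an adjusted p under 0.05 with limma. Passing says nothing particular about the islands, because 99.9% of all listed DMRs passed, and in 100% of them every LDM library lay on one side of every PMM library. The balance of directions in the whole list was different, a comparison that was not tested: 44% of all listed DMRs passed as lower in PMM and 55.9% as higher. Among shore DMRs outside islands 51.5% were lower, and among DMRs in neither islands nor shores 42.8% were lower.

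The median log2 difference was -1.69 over the island DMRs, against -0.67 over the shore DMRs and 0.56 over all listed DMRs. In the LDM libraries the median depth of the 226 island DMRs was 29.2, 24.1 and 28.2. In the PMM libraries it was 12.1, 5.27 and 9.80. Over all listed DMRs the medians ran from 26.2 to 28.0 in LDM and from 23.8 to 25.4 in PMM. The islands thus had LDM depths like those of the whole list, and PMM depths far below them.

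Losses in islands were also larger than losses elsewhere. The 197 lower island DMRs had a median fold of 3.43, against 2.59 for the 6685 lower DMRs outside islands, or 2.68 against 2.40 without PMM replicate 2. More than 4-fold losses were seen in 63 island DMRs (27.9%), against 4.96% of all listed DMRs. These shares count gains in their totals, and islands held fewer gains. Of the losses alone, 31.98% in islands and 10.65% outside were more than 4-fold, a smaller contrast. The 29 gains were smaller by their median, 1.60-fold against 1.80-fold outside islands, but held more large gains. More than 4-fold gains were seen in 7 of the 226 island DMRs (3.10%), against 0.23% of all listed DMRs. Of the gains alone, 24.1% in islands and 0.33% outside were more than 4-fold.

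PMM replicate 2 stood apart in the islands, and the size of the losses depended on it. It was the lowest PMM library in 155 of the 197 losses (78.7%), compared with 56.4% of losses outside islands. Its depth was 0 in 9 island DMRs and below 1 in 21, whereas PMM replicate 3 was at 0 in 1 and the other libraries in none. Without this library all 226 calls and directions were kept, and the median log2 difference was -1.35. Only 20 island DMRs (8.85%) were then lost more than 4-fold, against 1.97% of all listed DMRs. Of the losses alone, 10.15% in islands and 4.31% outside were more than 4-fold without this library. The fold of 25 losses shrank by more than 1.5 times without it, and the fold without this library is given below beside each named loss of more than 4-fold. Leaving out PMM replicate 1, PMM replicate 3 or LDM replicate 1 moved the folds of 8, 2 and 1 island DMRs by more than 1.5 times. LDM replicate 2 was in turn the lowest LDM library in 142 of the 197 losses.

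**Figure D1:**
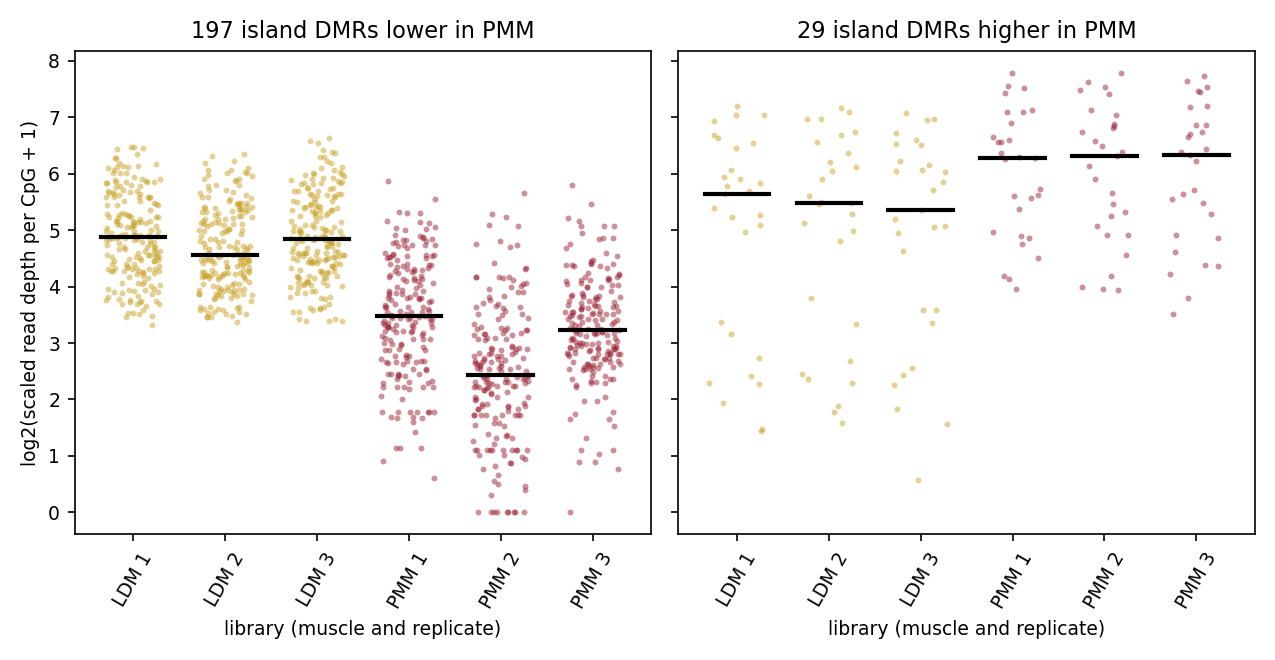
Read depth in each library for the 197 island DMRs lower in PMM (left) and the 29 higher in PMM (right). The y axis is log2(scaled read depth per CpG + 1), each point is 1 DMR, points are spread sideways at random, and the black bar is the library's median depth on that scale. In the left panel PMM replicate 2 is the lowest library, with a median depth of 4.42 against 10.21 and 8.43 in the other PMM libraries. In the right panel LDM libraries fall into a low and a high group of DMRs.

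Within each muscle the libraries ordered the islands alike. Across the 226 island DMRs, the correlation of log2(depth + 1) between libraries of the same muscle ran from 0.855 to 0.954, and between libraries of different muscles from 0.434 to 0.693. These are descriptions over DMRs, which share libraries and are not replicates. The DMRs were also listed because these libraries differ between the muscles, so the gap between the ranges is not independent evidence. The spread between libraries was wider in the muscle with the low depths: for the losses, the median SD of log2(depth + 1) was 0.18 in LDM and 0.61 in PMM.

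The island DMRs were short and dense in CpGs. Their median length was 90.5 bp, from 9 to 1664 bp, and they held a median of 8 CpGs, from 5 to 83, where 5 was the smallest number allowed in a DMR. Their median density was 8.33 CpGs per 100 bp, against 5.34 for DMRs outside islands. The LDM mean of the losses ran from 10.0 to 86.6 and the PMM mean of the gains from 13.2 to 217, where CpGs under a depth of 10 had been dropped by the authors.

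CpG density moved with direction over the whole list, inside islands and outside. When all listed DMRs were divided into 4 equal classes by density, the share lower in PMM outside islands was 6.07% in the sparsest, 23.8% in class 2, 62.5% in class 3 and 82.9% in the densest. Of the 226 island DMRs, 133 fell in class 4, the densest, and 78 in class 3. In class 4, 123 of 133 island DMRs (92.5%) were lower, and in class 3, 66 of 78 (84.6%), both above the shares outside islands. The sparser classes held 4 and 11 island DMRs, of which 2 and 6 were lower. The differences between these shares were not tested.

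**Figure D2:**
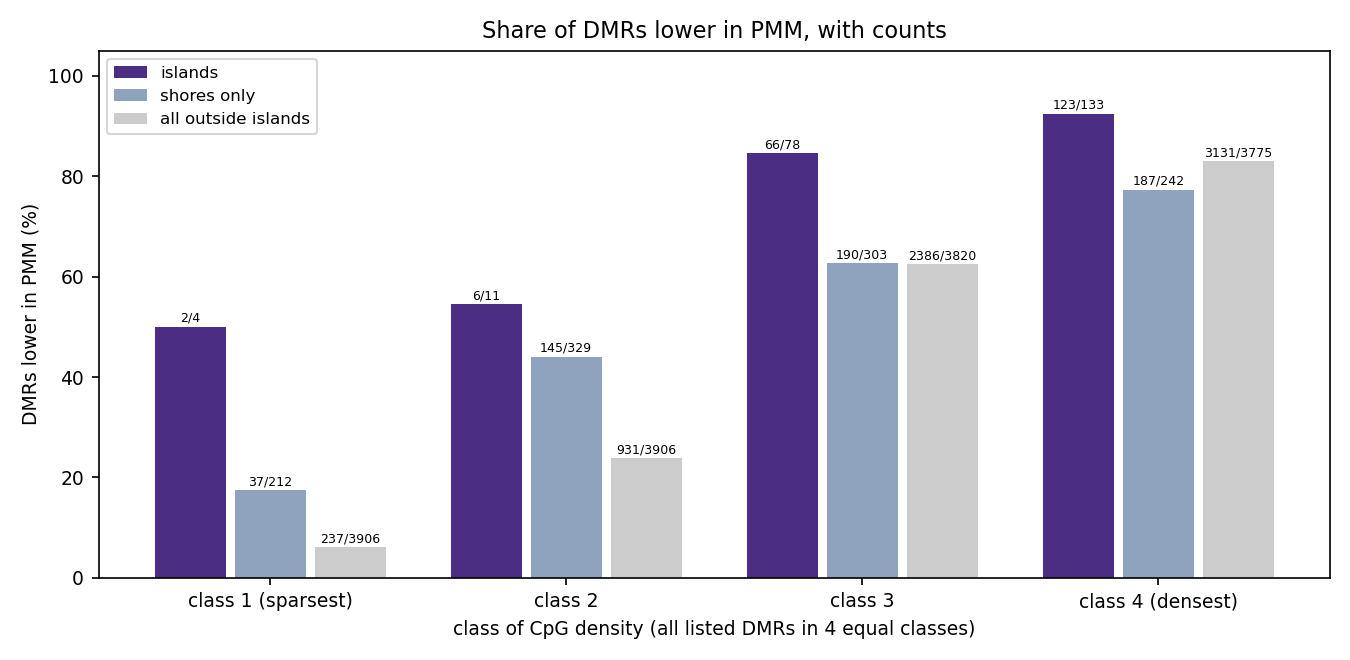
Share of DMRs lower in PMM (y axis, percent) in 4 equal classes of CpG density over all listed DMRs (x axis), for islands, for shores outside islands and for all DMRs outside islands. The numbers above the bars are DMRs lower in PMM over all DMRs of that bar. The bars rise from the sparsest to the densest class in all 3 sets, from 6.07% to 82.9% outside islands and up to 92.5% in islands.

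Part of the island losses did not pass once this trend was taken out. A smooth trend of log2(depth + 1) on CpG density was estimated in each library over all listed DMRs and subtracted. After that, 98 island DMRs were lower and 29 higher at an adjusted p under 0.05 with limma, the 98 all being among the 197 losses. Of all listed DMRs, 22.6% passed as lower and 26.6% as higher under the same subtraction. The median over islands was then -0.71, against 0.03 over all listed DMRs. Of the 29 gains, 26 passed and kept their direction, and 18 island DMRs changed sign, 3 of them losses that passed as higher. With PMM replicate 2 also left out, 96 passed as lower, against 22% of all listed DMRs, and the median was -0.45. The part of CpG density in the island losses was not tested beyond this subtraction.

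**Figure D3:**
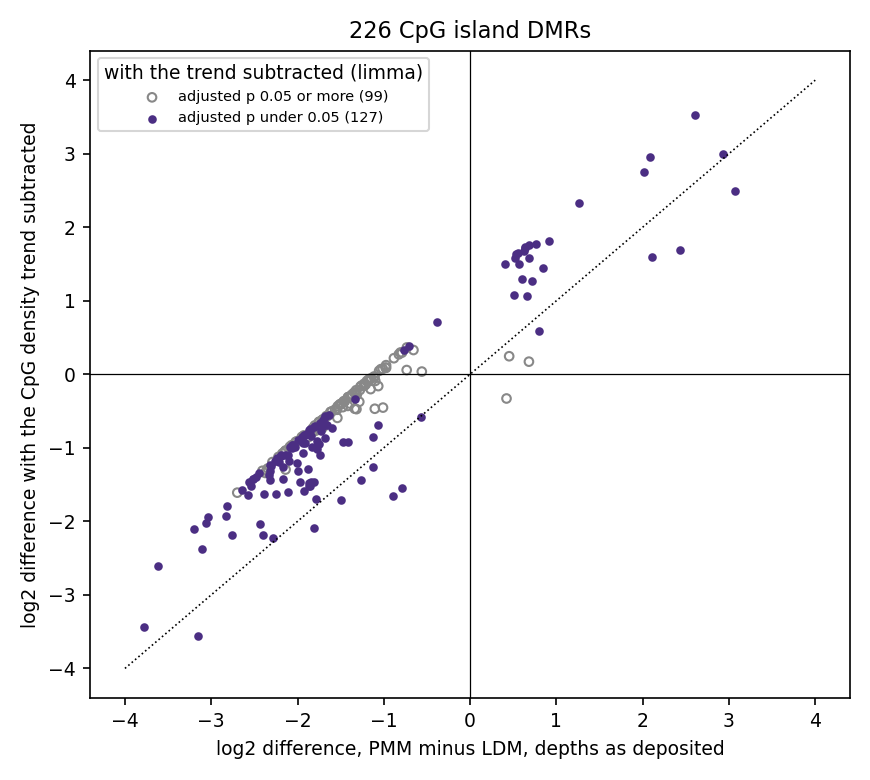
Log2 difference, PMM minus LDM, of the 226 island DMRs with depths as deposited (x axis) and with the trend on CpG density subtracted (y axis). Filled points passed an adjusted p under 0.05 with limma after the subtraction and open points did not, and the dotted line marks equal values. Most losses lie above the dotted line, closer to 0, and the gains lie mostly above it, farther from 0.

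All annotation classes of island DMRs held more losses than gains. Promoters had 14 island DMRs, and all 14 were lower in PMM, with a median log2 difference of -1.89. Outside islands, 45.7% of promoter DMRs were lower. Introns had 76 island DMRs with 72 lower, and exons 30 with 25 lower, while outside islands 43.0% of intron DMRs and 27.8% of exon DMRs were lower. Downstream sequence had 10 island DMRs with 6 lower, and intergenic sequence 96 with 80 lower, against 43.7% and 44.6% outside. A symbol was annotated to 124 of the island DMRs, naming 121 genes, and 102 had none.

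**Figure D4:**
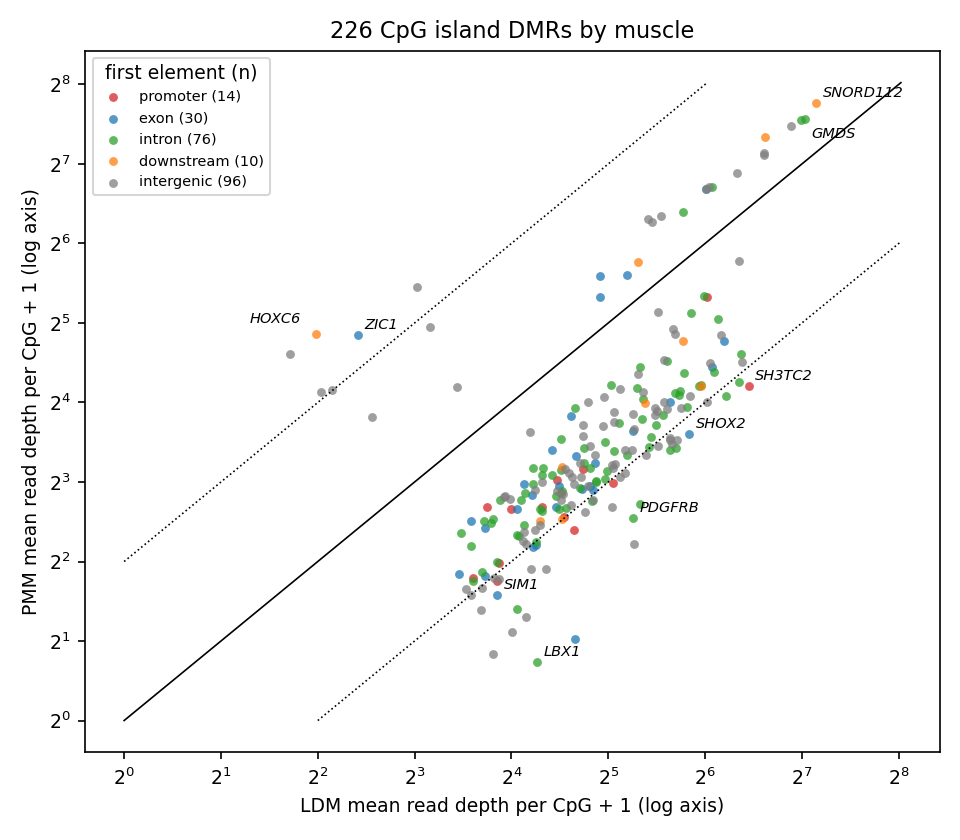
Mean read depth per CpG + 1 of each island DMR in LDM (x axis) and PMM (y axis), both on log axes, coloured by the first annotated element with its number of DMRs. The solid line marks equal depth and the dotted lines 4-fold. The losses form a band below the solid line at LDM means of 10.0 to 86.6, and the 29 gains form a small group at low LDM depth and a larger group near the solid line at high depth.

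The 14 promoter losses were divided by the promoter's CpG content, as the authors' table gives it, into 9 high CpG promoters (HCPs) and 5 intermediate CpG promoters (ICPs). The deepest was the HCP of *SH3TC2*, a gene needed for myelination by Schwann cells (chr2:157019753-157020029, Sscrofa10.2, 21 CpGs). Its depth was 88.2, 73.7 and 98.0 in LDM and 22.7, 9.80 and 19.9 in PMM. Every PMM library was far below every LDM library, and the difference of -2.31 ± 0.27 (SE) on the log2 scale (adjusted p = 0.00026, limma) was 4.97-fold, or 3.90-fold without PMM replicate 2.

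The promoter of *ACSL4*, which activates long-chain polyunsaturated fatty acids, lies on the X chromosome (chrX:105452308-105452401, 6 CpGs). Its depth was 15.8, 13.3 and 11.9 in LDM and 5.25, 0 and 3.64 in PMM, a 4.74-fold loss that was 2.71-fold without PMM replicate 2. The ICP of *LITAF*, an endosomal membrane protein, depended on that library even more (chr3:32330918-32330974, 5 CpGs). Its depth was 38.4, 25.5 and 32.6 in LDM and 11.4, 0 and 9.35 in PMM, giving 6.49-fold with all libraries, 2.89-fold without PMM replicate 2 and 10.17-fold without PMM replicate 1.

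The HCP annotated to *RNU6-513P* (chr15:157680842-157681013) had 29.1, 20.4 and 22.6 in LDM and 9.87, 0.83 and 2.15 in PMM. Its loss was 6.23-fold with all libraries, 4.23-fold without PMM replicate 2 and 10.3-fold without PMM replicate 1. This symbol is a pseudogene of the U6 spliceosomal RNA, which has many near-identical copies, and reads of such copies cannot be placed with certainty. The same limit holds for the promoter DMR annotated to the histone genes *HIST1H2AA* and *HIST1H2BA* (2.53-fold lower). A promoter DMR annotated to *NELFCD* and *CTSZ* was 4.58-fold lower, and 4.73-fold without PMM replicate 2. *NELFCD* is a subunit of the complex that pauses RNA polymerase II, and *CTSZ* a lysosomal cathepsin. Symbols were taken from all annotation entries of a DMR, so a promoter shared by the genes named together is not shown.

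The other promoter losses were smaller. *TCEAL1*, *LSMEM1*, *AK8*, *TELO2* and *FAM122C* were lower by 4.09, 3.37, 3.26, 3.17 and 2.75 times, and the *TCEAL1* loss was 3.30-fold without PMM replicate 2. *RPTOR* is the scaffold of the growth regulator mTORC1, and its promoter was lower by 2.09 times. The *FAM122C* promoter was among the island DMRs richest in CpGs, with 24. With the density trend subtracted, 5 promoter islands passed as lower, all of them HCPs (*RNU6-513P*, *SH3TC2*, *ACSL4*, *NELFCD*/*CTSZ* and *TCEAL1*), and the *UNCX* promoter turned to 0.39 higher (adjusted p = 0.026, limma). No ICP passed.

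Genes of developmental transcription factors carried some of the largest differences in both directions. A list of such factors (homeobox, paired, T-box, forkhead, ZIC, bHLH patterning genes and related families) had 11 genes with 12 island DMRs, of which 10 were lower and 2 higher in PMM, with a median log2 difference of -1.77. The same list had 69 DMRs outside islands, of which 37.7% were lower. With the density trend subtracted, 5 of the 12 passed as lower and 3 as higher.

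*LBX1*, a homeobox factor of the muscle precursors that migrate into the limbs, had a large loss in its first intron (chr14:122028358-122028541, 14 CpGs). The depth was 22.2, 15.9 and 16.6 in LDM and 0.52, 0 and 1.48 in PMM, a log2 difference of -3.61 ± 0.38 (SE, adjusted p = 0.00026, limma). The loss was 12.2-fold with all libraries and 9.80-fold without PMM replicate 2. The table gives the location of this island as intergenic, while it gives the DMR as intronic. The same holds for other island DMRs given as intronic, among them those of *PDGFRB*, *BMP7* and *PPP2R5C* named below. An intergenic island location was given for 124 island DMRs, while 96 were classed as intergenic by their first element.

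*SHOX2*, a homeobox factor of limb and cardiac pacemaker development, had a loss in an internal exon over 29 CpGs (chr13:106080841-106081240). Its depth was 63.3, 49.4 and 55.8 in LDM and 23.3, 4.01 and 6.09 in PMM, so that 1 PMM library was several times above the others. The loss was 5.97-fold, 4.33-fold without PMM replicate 2 and 9.54-fold without PMM replicate 1. *SIM1*, a bHLH-PAS factor of the hypothalamus, was lower in an internal exon (chr1:76055221-76055397, 10 CpGs), with 14.0, 11.1 and 15.3 in LDM and 3.88, 0.93 and 1.14 in PMM, and its 5.27-fold loss was 4.44-fold without PMM replicate 2. A shore DMR 970 bp away was lower by -2.55 on the log2 scale.

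Near *ZIC2*, a zinc finger factor of forebrain and neural tube development, an island DMR without a symbol lay 514 bp from a DMR annotated to the gene (chr11:76110339-76110403, 6 CpGs). It had 12.5, 10.5 and 16.0 in LDM and 1.21, 1.16 and 0 in PMM. PMM replicate 3 was the lowest library here, and without PMM replicate 2 the loss was 9.30-fold in place of 8.21-fold. The *ZIC2* DMR itself, in a shore, was lower by -3.34 on the log2 scale.

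The remaining losses of the list were moderate. The promoter DMR annotated to *LRBA* and *MAB21L2*, the latter a gene of eye and limb development, was 4.43-fold lower and 2.68-fold without PMM replicate 2. The symbols do not show which of these genes the promoter belongs to. *TBX4*, the T-box factor of the hindlimb, was 2.63-fold lower in an exon, with 17.8, 13.0 and 16.2 in LDM and 4.44, 6.01 and 5.54 in PMM. *CUX1*, *FOXK2* and *UNCX* had log2 differences of -1.32, -0.81 and -0.70, and the latter pair changed sign with the density trend subtracted.

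The gains of the list were *HOXC6* and *ZIC1*, and both rose from near no signal. Downstream of *HOXC6*, a homeobox gene that patterns the body axis (chr5:19693926-19694202, 15 CpGs), the depth was 1.80, 2.69 and 4.39 in LDM and 26.1, 29.1 and 29.1 in PMM. This difference was 2.93 ± 0.27 (SE, adjusted p = 0.00026, limma), or 7.61-fold, and stood at 2.996 with the density trend subtracted.

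A pair of intergenic islands nearby were higher in PMM as well. They lay 25821 and 26639 bp from another DMR annotated to *HOXC6*, and 678 bp from each other. The one at chr5:19723839-19723978 had 2.83, 4.49 and 1.98 in LDM and 21.6, 14.9 and 13.0 in PMM. Its neighbour at chr5:19724657-19724924 had 4.36, 1.98 and 0.49 in LDM and 28.0, 22.7 and 19.7 in PMM, and its 8.42-fold gain was the largest of any island DMR.

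*ZIC1*, a relative of *ZIC2* that acts in the dorsal neural tube and in somites, was higher in an internal exon over 23 CpGs (chr13:95428387-95429055). Its depth was 3.87, 5.41 and 3.75 in LDM and 30.5, 29.1 and 23.5 in PMM. Libraries of each muscle lay close together and the muscles far apart, with a 5.39-fold gain that was 5.24-fold without PMM replicate 2. The islands at the related genes *ZIC1* and *ZIC2* thus differed in opposite directions.

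**Figure D5:**
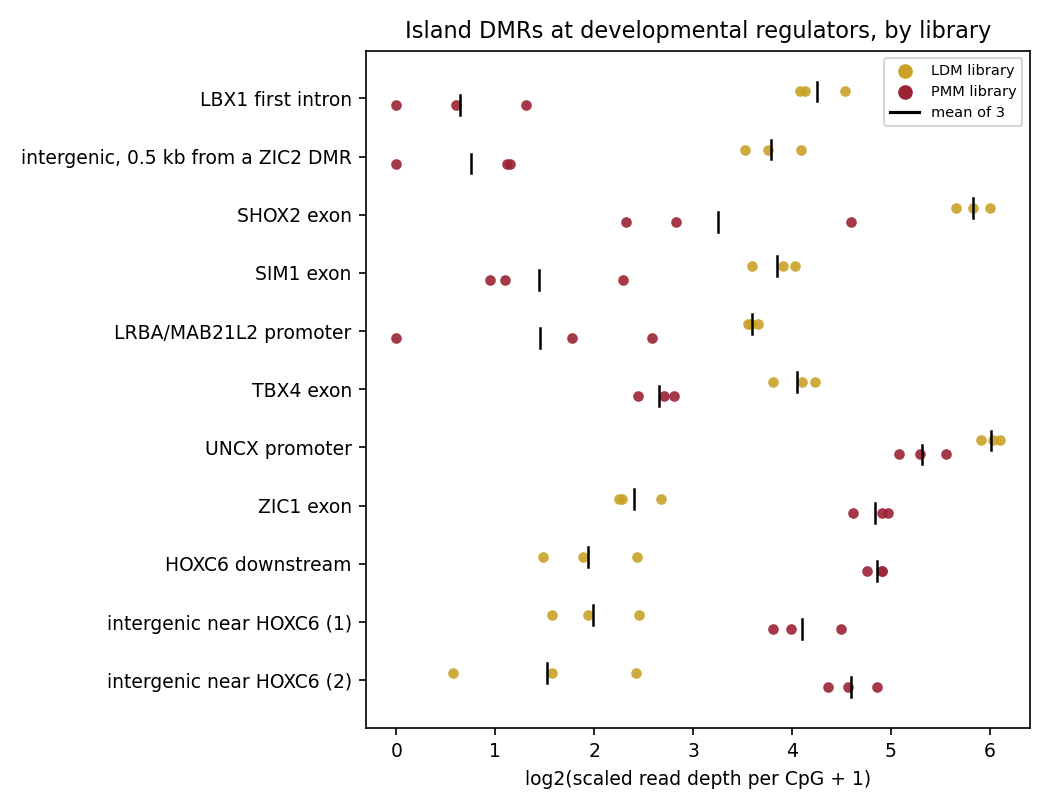
Read depth of island DMRs at or near developmental regulators, by library. The x axis is log2(scaled read depth per CpG + 1), each point is 1 library (gold LDM, red PMM), and the black tick is the mean of the 3 libraries on that scale. At *LBX1* the PMM libraries lie at or near 0, and at *HOXC6* and *ZIC1* the LDM libraries are the low ones, with LDM means of 2.96 and 4.34 against 28.1 and 27.7 in PMM.

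The 29 gains fell into a low and a high set by their LDM depth, a division noted after the values were seen. In 9 of them the LDM mean ran from 2.28 to 9.84 and the PMM mean from 13.2 to 43.0, with folds of 1.70 to 8.42, and 7 of these were intergenic. In the other 20 the LDM mean ran from 29.1 to 141, and folds only from 1.33 to 1.88. No gain had an LDM mean between these sets.

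Besides the islands near *HOXC6*, the low set included an intergenic island on chromosome 10 (chr10:9341234-9341401, 12 CpGs). Its depth was 7.92, 2.42 and 11.1 in LDM and 48.2, 36.9 and 43.8 in PMM, a 6.10-fold gain. An intergenic island on chromosome 15 (chr15:91889902-91890001) had 1.71, 12.9 and 9.24 in LDM and 28.9, 32.7 and 27.9 in PMM. There the LDM libraries differed among themselves by several times, and the 4.23-fold gain was 2.58-fold without LDM replicate 1.

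The high set held the deepest island DMRs of all. The deepest lay downstream of *SNORD112*, a small nucleolar RNA of the imprinted *DLK1*-*DIO3* cluster in human (chr7:132140740-132140926, 15 CpGs). It had 145, 143 and 134 in LDM and 219, 220 and 211 in PMM. This gain was 1.54-fold, with libraries of each muscle within a narrow range, although small nucleolar RNAs of this family occur in near-identical copies, whose reads cannot be placed with certainty.

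Introns of *GMDS*, the first enzyme of GDP-fucose synthesis, and of *IAH1*, an esterase, were similarly deep. *GMDS* (chr7:1365012-1365092, 9 CpGs) had 130, 136 and 125 in LDM and 182, 184 and 200 in PMM. *IAH1* (chr3:135128632-135128865, 17 CpGs) had 131, 125 and 123 in LDM and 187, 197 and 177 in PMM. Both gains were under 1.5-fold. The gap between the muscles at these genes is not particular to them, since every listed DMR had one.

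Of the other gains with a symbol, introns of *IARS2*, the mitochondrial isoleucyl-tRNA synthetase, and of *PAK1IP1* were each 1.55-fold higher. Last exons of *CTNNA1*, which encodes alpha-catenin, and *ARHGAP21*, a GTPase-activating protein, were 1.61-fold and 1.60-fold higher. *SDK2*, an adhesion molecule of synapses, was 1.34-fold higher over 51 CpGs of its last exon, and the region downstream of *AP2A2* and *MUC6* 1.37-fold. With the density trend subtracted *ARHGAP21* and *AP2A2*/*MUC6* no longer passed, and *SDK2* stood at -0.33.

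Gene lists are described next by their counts, to be read against the 87.2% of all island DMRs that were lower, so that a short list with losses alone is not particular to its genes. The lists were matched by gene symbol and do not hold every gene of a class, so each count is of the list alone. The list of kinases and phosphatases of signalling had 7 island DMRs in 6 genes, all lower in PMM, and 41.3% of its DMRs outside islands were lower. *PDGFRB*, the receptor of platelet-derived growth factor on pericytes and other mesenchymal cells, held 2 of them in introns. At chr2:158037478-158037701 (16 CpGs) the depth was 30.9, 31.4 and 49.1 in LDM and 4.47, 1.89 and 8.12 in PMM, a 7.12-fold loss that was 5.28-fold without PMM replicate 2. At chr2:157948191-157948243 it was 85.7, 64.1 and 92.8 in LDM and 31.5, 13.3 and 9.80 in PMM, a 4.73-fold loss that was 4.32-fold without PMM replicate 2.

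In *STK17A*, a serine/threonine kinase, an intron had 50.0, 55.1 and 48.0 in LDM and 8.79, 2.76 and 17.7 in PMM, which was 5.89-fold lower, or 3.84-fold without PMM replicate 2. *PPP2R5C*, a regulatory subunit of protein phosphatase 2A, and *INPP5A*, an inositol phosphatase, were lower in introns by 3.49 and 2.42 times. Of the list of Wnt, Notch, Hedgehog, TGF-beta and BMP signalling, the first introns of *BMP7* and *TGFB2* were lower, by 3.25 and 2.63 times, while 26.7% of that list's DMRs outside islands were lower.

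The list of small GTPase regulators had 5 island DMRs, 4 lower and *ARHGAP21* higher. *DENND5A*, an exchange factor for Rab proteins, had a large loss in an intron (chr9:405400-405453, 6 CpGs). Its depth was 46.8, 30.7 and 39.9 in LDM but 13.5, 0.39 and 2.94 in PMM. The PMM libraries were wide apart, and the 9.21-fold loss was 5.23-fold without PMM replicate 2 and 16.9-fold without PMM replicate 1. *TBC1D22A*, *DENND3* and *TBC1D14* were lower by 3.50, 2.82 and 2.50 times.

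The list of matrix and adhesion genes had 5 island DMRs, all lower like most island DMRs, and 47.2% of its DMRs outside islands were lower. They were a pair in introns of the fibrillar collagen gene *COL5A1* (4.58-fold, or 3.34-fold without PMM replicate 2, and 2.60-fold), and 1 each in *LOXL1*, which cross-links elastin (3.66-fold), the cadherin gene *CDH4* (2.22-fold) and the protease gene *ADAMTS16* (2.16-fold). The *ADAMTS16* loss stood at -0.04 once the density trend was subtracted, and a shore DMR 597 bp from it was higher in PMM by 1.49 on the log2 scale.

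The list of ubiquitin ligases and deubiquitinases had 6 island DMRs, all lower like most island DMRs, and 45.0% of its DMRs outside islands were lower. *FBXO38*, a substrate receptor of a ubiquitin ligase, had 2 of them 185 bp apart, in an exon and the adjoining intron. The intronic one (chr2:156398796-156398842, 5 CpGs) had 43.6, 42.7 and 45.9 in LDM and 14.3, 8.37 and 13.7 in PMM, with little spread in either muscle. The exonic one was 5.08-fold lower with all libraries, 2.85-fold without PMM replicate 2 and 7.70-fold without PMM replicate 1. *ASB1*, *TRIM34* and *TRIM42* were lower by 3.53, 3.42 and 2.85 times, and *USP41* by a log2 difference of -1.49.

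The lists of muscle contraction genes and of glycolytic, glycogen and mitochondrial genes had 1 island DMR between them. *SRL* and *IARS2*, described elsewhere in this text, were in neither list. Since 1.45% of the whole list lay in islands, lists of this length could hold few, and nothing is read from these counts. The list of myogenic, sarcomere and fibre type genes had 0 island DMRs, with 57 DMRs outside islands. The lists of zinc finger and KLF factors, endothelial, leukocyte and imprinted genes (without *SNORD112*) also had none, with 78, 26, 80 and 9 DMRs outside. The list of glycolytic, glycogen and mitochondrial genes had *ENO1*, the glycolytic enolase, alone. An internal exon of it (chr6:63745663-63745732, 5 CpGs) had 20.8, 14.3 and 19.2 in LDM and 5.33, 1.16 and 4.37 in PMM, a 4.51-fold loss that was 3.24-fold without PMM replicate 2.

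*SRL* encodes sarcalumenin, which binds calcium in the sarcoplasmic reticulum of muscle. Downstream of it (chr3:39242921-39243001, 5 CpGs) the depth was 25.0, 17.2 and 23.5 in LDM and 2.18, 3.72 and 8.52 in PMM, 4.33-fold lower, and 4.11-fold without PMM replicate 2. Among channels and transporters, *CLCN4*, *KCNN3*, *SLC43A2* and *SLC37A1* were lower by 3.66, 1.84, 2.91 and 2.15 times, and *KCNN3* changed sign with the density trend subtracted. In the chromatin list, *ARID1B*, a subunit of the SWI/SNF remodelling complex, was 3.56-fold lower in its last exon, or 2.45-fold without PMM replicate 2. Downstream sequence of *DYNLT1*, a dynein light chain, and of *EDAR*, the ectodysplasin receptor, was lower by 4.20 and 3.86 times, and by 2.49 and 2.74 times without PMM replicate 2.

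Several genes held a pair of island DMRs, and both members were lower in those named here. Besides *PDGFRB*, *FBXO38* and *COL5A1* these were *DDX31*, a putative RNA helicase (6.78-fold and 3.31-fold), *PDE6A*, a phosphodiesterase of rod photoreceptors (3.27-fold and 2.90-fold), and *TBCD*, a tubulin-folding cofactor (3.23-fold and 1.66-fold). The larger *DDX31* loss was 3.58-fold without PMM replicate 2 and 11.3-fold without PMM replicate 1, and the smaller *TBCD* loss changed sign with the density trend subtracted.

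Island DMRs also lay near each other in the genome. Of 7 pairs within 10 kb of each other, all 7 had the same direction, where 87.2% of all island DMRs were lower. The closest pair lay 2 bp apart and some pairs shared a DMR, so the pairs are not all separate loci. A window of chromosome 2 from 156398583 to 158037701 held 8 island DMRs, 7 of them in *FBXO38*, *SH3TC2*, *PDE6A* and *PDGFRB*, and all 8 were lower, as were 71.4% of the 35 other DMRs listed there. A window of chromosome 12 from 152042 to 1768890, with *FOXK2*, *TBCD*, *CCDC57* and *RPTOR*, also held 8, all lower, beside 65% of 20 others. A window of chromosome 1 from 1596034 to 3487032, with *THBS2* and *MLLT4*, held 7, of which 5 were lower and 2 higher, beside 58.3% of 36 others lower. A window of chromosome 18 from 842211 to 2531933, with *ESYT2*, and one of chromosome 1 from 306445793 to 308163489, with *DDX31*, *AK8* and *COL5A1*, each held 6, all lower, beside 35.7% of 28 and 63.2% of 19 others. These windows of up to 2 Mb are the 5 that held the most island DMRs. Their island counts are likewise to be read against the 87.2% of all island DMRs that were lower.

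DMRs beside the islands did not all share the islands' direction. Within 2 kb of a lower island there were 20 different listed DMRs outside islands, of which 10 were lower and 10 higher in PMM. All 3 beside a higher island were higher. At *TGFB2*, for example, a DMR 1151 bp from the lower island was higher by 0.56 on the log2 scale, with a mean depth of 37.3 in LDM and 55.3 in PMM.

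Some of the largest losses had no gene. An intergenic island on chromosome 4 (chr4:111911503-111911612, 5 CpGs) had 28.4, 33.4 and 50.9 in LDM and 1.21, 3.95 and 5.82 in PMM. Its loss of 8.89-fold was the largest outside genes, did not rest on PMM replicate 2 (9.64-fold without it), and stood at -3.56 with the density trend subtracted. Further intergenic losses on chromosome 4 (chr4:142375772-142375952) and chromosome 1 (chr1:247838900-247838919) were 8.62-fold and 8.36-fold, and 6.04-fold and 6.05-fold without PMM replicate 2.

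The island DMR with the most CpGs was also intergenic (chr4:141483073-141484736, 83 CpGs). Its depth was 42.6, 32.8 and 44.3 in LDM and 22.1, 11.5 and 15.8 in PMM, a 2.39-fold loss. An island DMR of 24 CpGs on chromosome 17 (chr17:65392528-65392937) was 3.79-fold lower. By the number of CpGs, 48 of the 50 island DMRs with 5 CpGs were lower, 90 of 102 with 6 to 9, 44 of 51 with 10 to 14, and 15 of 23 with 15 or more.

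The islands were spread over all 18 autosomes and the X chromosome, with 23 on chromosome 1, 20 on chromosome 3 and 16 on chromosome 12. All 13 on chromosome 18, all 10 on chromosome 9 and 12 of the 13 on the X chromosome were lower. On chromosome 7 only 8 of 13 were lower. The first 10 Mb of a chromosome held 80 of the 226 island DMRs (35.4%), compared with 30.8% of the shore DMRs and 13.1% of all DMRs outside islands. The share of losses was similar there, 88.8% against 86.3% beyond, whereas the median loss was 2.90-fold against 3.61-fold, or 2.44-fold against 2.77-fold without PMM replicate 2. These shares were not tested.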

How the data were processed

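The deposited values are a coverage signal that the authors made from MeDIP-seq reads, the mean read depth per CpG of a DMR in each library, scaled by 1 factor per library. According to the study's methods, reads were aligned with SOAP, the build is Sscrofa10.2, and reads mapped to several places were treated as duplicates and kept once. The study's results instead describe ambiguously mapped reads and likely PCR duplicates as removed. By the methods, CpGs under a depth of 10 were dropped, and CpGs that differed between muscles were joined into DMRs of 5 or more CpGs. Multiplied by the number of CpGs, the depths were whole multiples of a step of 1 to 1.21 per library (tolerance 0.1 steps). A read over several CpGs counts several times, so no count model was used. Library totals are not known from this table. The source name reads *longissimus dorsi* for all 6 libraries, so groups came from the titles. The table also holds the authors' muscle means, p-values and false discovery rates, which were not used.

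For the test, limma 3.58.1 (R 4.3.3) was fitted to log2(depth + 1) (trended variance, muscle as the only term, threshold 0.05) over all listed DMRs, after a test on simulated data. The density trend was a lowess fit (span 0.3) of log2(depth + 1) on the log2 number of CpGs per 100 bp in each library. Alternatives were pseudocounts of 0.25 and 4, a mean depth of at least 10, median scaling, unmoderated variance, a replicate block and leaving out each library. Classes took the first of promoter, exon, intron, downstream and intergenic that applied. Named DMRs were the 4 largest gains and losses of each class, the 6 with the most CpGs, the 5 deepest, genes with 2 or more island DMRs and up to 4 genes per list. A further 12, the remaining promoters and developmental factors, were chosen after their values were seen, as were DMRs named as neighbours. The islands and gene lists were chosen with earlier results of these data known. Sequences of the islands are not shown, since no genome of this build was used here. Results at some genes are not reported here.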

Additional observations from a re-analysis of the deposited data

How the results depend on the processing

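The counts of 29 higher and 197 lower island DMRs were the same without each library in turn, with medians from -1.83 to -1.35, and under both other pseudocounts. Median scaling gave 29 and 196, unmoderated variance 29 and 190, and a mean depth of at least 10 gave 27 and 166 because fewer DMRs were tested. With the density trend subtracted, 98 were lower and the median was -0.71, and without PMM replicate 2 as well, an alternative added after the data were seen, 96 and -0.45. The share higher in PMM was 12.8% over the islands, 50.0% and 45.5% in the sparsest and next density class and 7.52% in the densest. Of 82 named DMRs, 29 kept their direction but no longer passed with the trend subtracted, and 5 reversed, *FOXK2* (0.30), *TBCD* (0.37), *SDK2* (-0.33), *UNCX* (0.39) and *KCNN3* (0.22). Without PMM replicate 2 these were 0.23, 0.18, -0.31, 0.30 and 0.19, and *ADAMTS16* stood at 0.039. With unmoderated variance *DYNLT1*, *LITAF*, *ACSL4* and the exonic *FBXO38* DMR no longer passed.

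The labels do not say whether libraries with equal replicate numbers came from the same pig. Their deviations over all listed DMRs correlated at 0.038, 0.241 and 0.018, and those of unequal numbers at -0.212 to 0.181. Deviations from a mean of 3 libraries are tied to each other, so these values cannot decide whether the numbers are a pairing. The main fit used none. A fit with the replicate number as a block gave 29 higher and 197 lower and a median of -1.69, and changed no call among the named DMRs. With 3 libraries per muscle and depths near 0 in PMM, the size of the largest losses is poorly fixed.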
